A study of Homo sapiens with 12 samples.

Results

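Ribosome footprints on 10 genes of protein folding in the endoplasmic reticulum (ER) were followed in HAP1 cells. The genes are the chaperones HSPA5, HSP90B1, CALR, CANX and HYOU1, the disulfide isomerases PDIA3, PDIA4, PDIA6 and P4HB, and the transcription factor XBP1. They were taken by Ensembl gene identifier from a table of 19580 genes, and all 10 entered the tests, which took the 11510 genes that reached 1 RPKM in 3 libraries or more. RPKM is a read count scaled by the length of the transcript in kilobases and by the total reads of the library.

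HAP1 is a near-haploid human line derived from KBM-7, and the wild-type line, grown in the same medium, served in all groups. One group received 4-thiouridine (4SU, 5 uM for 18 h) followed by UVA light (6 kJ per square metre, 30 min of recovery), and is called 4SU+UVA here. The other groups received 4SU alone, UVA alone, or neither (untreated). Each group held 3 biological replicates, 12 libraries in all. 4SU is a uridine analogue that is built into new RNA and, when excited by UVA, bonds to nearby protein, so only the combined treatment was designed to crosslink protein to RNA. The table pairs its identifiers with no symbols, so the identity of the line could not be checked against marker genes and other genes of the pathway were not counted.

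The ER lumen folds proteins that are destined for membranes and secretion. Chaperones of the Hsp70 and Hsp90 families hold exposed hydrophobic stretches, the lectins calnexin and calreticulin retain unfinished glycoproteins, and the disulfide isomerases form and rearrange disulfide bonds. When unfolded protein accumulates, the sensor IRE1 splices XBP1 mRNA so that an active factor is made, and this factor and the sensor ATF6 raise transcription of many chaperone genes, a programme known as the unfolded protein response.

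The letters through which ATF6 is known to act are present upstream of most of these genes, and the stretches that hold them are shown. The genes were chosen as folding genes of the ER and XBP1, and the unfolded protein response is known to raise many such genes. Their matches are therefore a description and no independent test. The ER stress element was searched as CCAAT followed, after 9 bases of any kind, by CCACG, on both strands of the RefSeq promoters of GRCh38.p14, from 250 bases before to 50 bases after each start. It was found in 6 of the 9 genes with a promoter at hand (HSPA5, HSP90B1, CALR, CANX, PDIA6 and XBP1). Of all 27305 genes, these 6 included, 25 or 0.0916% held it. The related element, ATTGG and CCACG with 1 base of any kind between them, was found in HYOU1, where 2 copies lie, and in 0.0696% of all genes. A core of the element that XBP1 is known to bind, TGACGTGG, was found in HYOU1 too, where it overlaps the more distant of these copies, and in 0.927% of all genes. None of the 3 was in the windows of PDIA4 or P4HB, which says only that these exact letters are not there, and PDIA3 is named only. Each stretch below is written on the strand of its gene with the element in capitals.
HSPA5 (chr9:125241371-125241429, minus strand, 66 bases before the start): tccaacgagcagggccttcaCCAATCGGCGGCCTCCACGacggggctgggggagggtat
HSP90B1 (chr12:103930196-103930254, plus strand, 194 bases before the start): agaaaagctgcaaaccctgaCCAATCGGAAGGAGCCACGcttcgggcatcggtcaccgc
HSP90B1 (chr12:103930301-103930359, plus strand, 89 bases before the start, reverse orientation): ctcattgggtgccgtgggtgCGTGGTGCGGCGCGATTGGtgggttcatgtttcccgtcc
CALR (chr19:12938364-12938422, plus strand, 225 bases before the start, reverse orientation): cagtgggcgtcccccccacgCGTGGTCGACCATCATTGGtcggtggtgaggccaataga
CANX (chr5:179698773-179698801, plus strand, 151 bases before 1 of its listed starts): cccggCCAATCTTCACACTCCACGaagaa
PDIA6 (chr2:10812833-10812891, minus strand, 86 bases before 1 of its listed starts): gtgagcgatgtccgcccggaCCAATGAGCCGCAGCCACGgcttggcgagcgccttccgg
XBP1 (chr22:28800583-28800641, minus strand, 52 bases before 1 of its listed starts): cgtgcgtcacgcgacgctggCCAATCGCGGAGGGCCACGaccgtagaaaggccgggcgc
HYOU1 (chr11:119057360-119057410, minus strand, 185 bases before the start, reverse orientation): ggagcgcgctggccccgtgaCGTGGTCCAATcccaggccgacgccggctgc
HYOU1 (chr11:119057254-119057304, minus strand, 79 bases before the start, reverse orientation): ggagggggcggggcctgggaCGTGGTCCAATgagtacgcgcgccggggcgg
A match describes the sequence and does not show that a factor binds there.

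Depth, as recovered from the table, ran in reads per library from 1899854 to 5526950 for 4SU+UVA, from 3991129 to 4514227 for 4SU, from 3358145 to 5425688 for UVA and from 3785480 to 5832366 for untreated cells. Behind each value stood at least 1207 reads for the 4 genes with the most reads (CALR, HSP90B1, CANX and HSPA5). The others had fewer, down to 267 reads for PDIA3 in 4SU+UVA replicate 2 and 178 for XBP1 in untreated replicate 1. The 10 genes together took 0.476 ± 0.0101% of all reads with 4SU+UVA, 0.57 ± 0.0616% with 4SU, 0.442 ± 0.0383% with UVA and 0.418 ± 0.0492% in untreated cells (SD, n = 3 each). Footprints count ribosomes on mRNA, so how much of an mRNA there is and how densely it is loaded enter a value together. As shares of the reads of a bulk lysate, the values show neither the number of cells nor the RNA per cell. A change common to all genes would not show.

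In untreated cells CALR stood highest, at 447 ± 46.5 RPKM, then HSP90B1 at 238 ± 48.2, CANX at 196 ± 23.4, P4HB at 154 ± 14.6, HSPA5 at 151 ± 18.2, PDIA6 at 139 ± 8.05, PDIA4 at 88.0 ± 9.16, PDIA3 at 41.7 ± 4.65, HYOU1 at 39.1 ± 4.84 and XBP1 at 29.3 ± 3.99 RPKM (SD, n = 3). The libraries of neighbours in this order overlapped for HSP90B1 and CANX, for P4HB, HSPA5 and PDIA6, and for PDIA3 and HYOU1, so their order is not larger than the spread. CALR was first in every group. XBP1 was last with 4SU, with UVA and in untreated cells, but eighth of 10 with 4SU+UVA, where its libraries overlapped those of PDIA3. RPKM is scaled by the whole transcript of each gene (1850 nt for XBP1 to 4598 nt for HYOU1), untranslated ends included, so a gene with long ends is shown lower than its coding part alone would be.

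**Figure D1:**
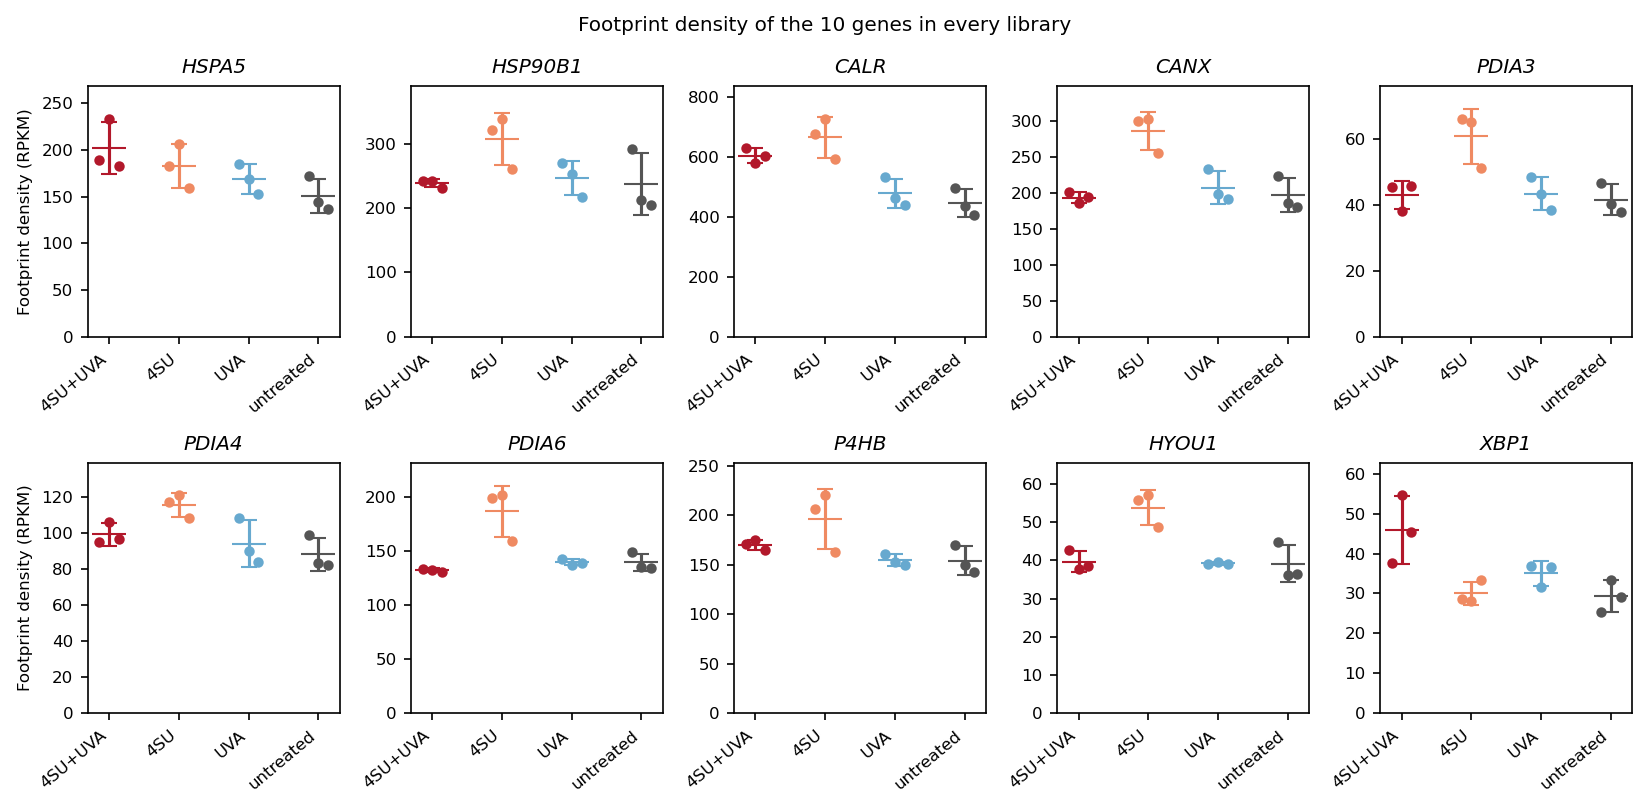
Footprint density in RPKM (vertical axes, from 0) of each gene in the 12 libraries, by group. Points are libraries in the order of their replicate number, and bars are the mean with SD (n = 3). The 4SU libraries of CANX all sit above those of the other 3 groups, while for XBP1 the 4SU+UVA libraries do.

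Of the 9 chaperones and isomerases, 8 had their highest mean with 4SU alone, while HSPA5 and XBP1 had theirs with 4SU+UVA. Against untreated cells, 4SU alone raised 7 of the 10 genes and lowered none (limma, adjusted p under 0.05, n = 3 per group), where 14.4% of all genes tested passed, 11.3% higher and 3.12% lower. With each library centred on its median, 5 of the 10 were higher and none lower, where 5.56% of all genes were higher and 9.38% lower. The genes tested include many with few reads, which pass less readily. With a filter of 5 RPKM in 3 libraries, 8 of the 10 were higher and none lower, where 15.1% of all genes were higher and 4.57% lower. The libraries of 4SU lay wholly above the untreated ones at 6 of the 10 genes and wholly below at none, where 25.1% and 10.1% of all genes did so. Median changes were 0.40 on the log2 scale for the 10 genes and 0.09 for all genes. Against 4SU alone, 4SU+UVA lowered 5 genes and raised 1, XBP1, where 44% of all genes passed, 19% lower and 25% higher. Under median centring 7 were lower and 1 higher (all genes 21.2% and 21.7%), under quantile normalisation 6 and 1 (22.6% and 20.5%), and with the trend on transcript length removed from each library 8 and 1 (23.7% and 18%). With the filter of 5 RPKM, 5 were lower and 1 higher (all genes 24.6% and 27.4%). The 4SU+UVA libraries lay wholly below those of 4SU at 6 genes and wholly above at 1, where 21.4% and 29.6% of all genes did so. The medians were -0.29 for the 10 genes and 0.09 for all genes. These comparisons share the 4SU libraries, so a chance excess in those libraries would enter both with opposite sign. The chaperones and isomerases also moved together between replicates, as described below, so these counts are not of independent genes.

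Set against untreated cells, 4SU+UVA raised 3 genes (XBP1, CALR and HSPA5) and lowered none, where 59% of all genes passed, 40.6% higher and 18.4% lower. The libraries did not overlap at 3 genes that were higher and 1 that was lower (PDIA6), where 43.6% and 20.2% of all genes did not. With only 10 genes, a count of 3 higher is near the 40.6% of all genes called higher and is not read as a shortfall. With each library centred on its median, 2 were higher and 1 lower, where 27% of all genes were higher and 25.1% lower. UVA alone changed 0 of the 10 genes by limma, where 0.652% of all genes passed (0.278% higher, 0.374% lower), and 0 of the 10 had an unadjusted p under 0.05. Its libraries overlapped the untreated ones at all 10, where 12.8% of all genes lay wholly higher and 3.93% wholly lower. Set against UVA, 4SU+UVA raised 2 (CALR and XBP1) and lowered none, where 54.4% of all genes passed, 34.7% higher and 19.8% lower. The libraries of these groups did not overlap at 3 genes that were higher and 1 that was lower, where 37.9% and 21.5% of all genes did not. The median gene itself moved by 0.23 between 4SU+UVA and untreated cells with the deposited scaling, so values relative to it are also given below.

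**Figure D2:**
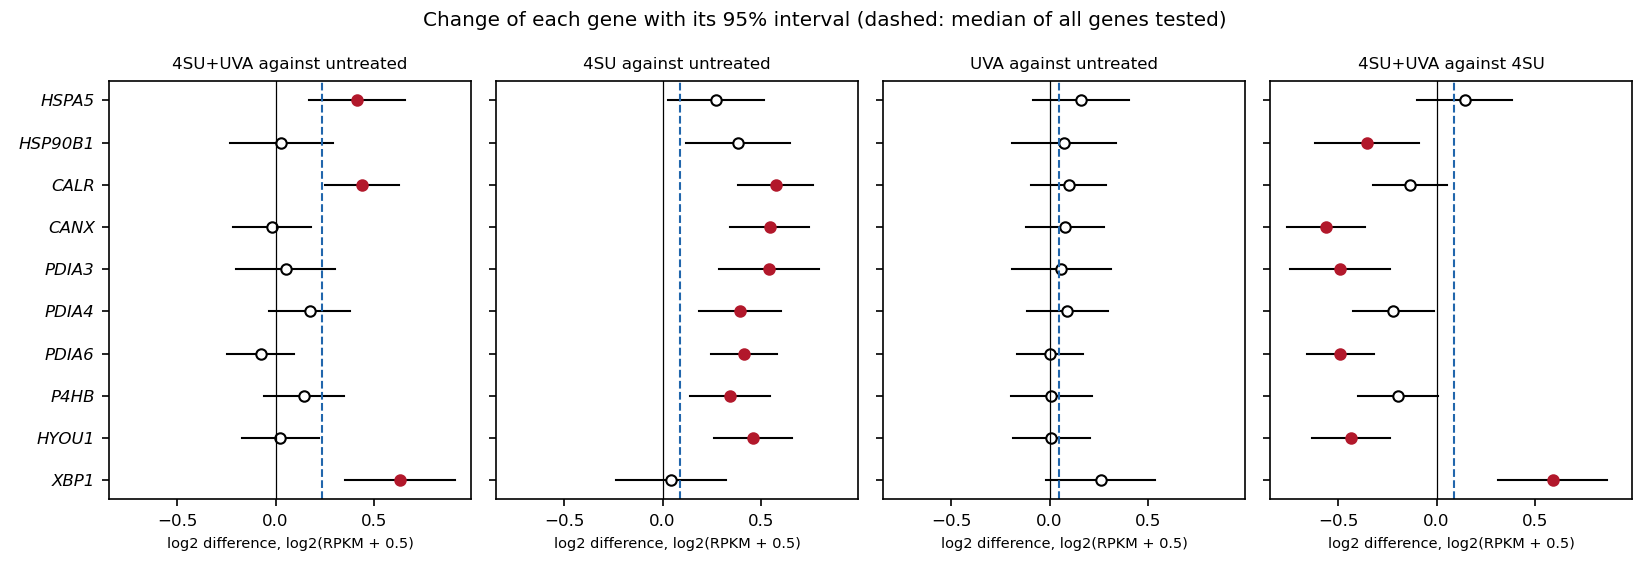
Change of each gene as a difference of mean log2(RPKM + 0.5), with its 95% interval, in 4 comparisons (3 libraries per group). Filled points passed limma's adjusted p of 0.05 over all genes, and the dashed line is the median of all genes. With 4SU all points lie right of 0, and in 4SU+UVA against 4SU XBP1 lies at 0.59 while CANX lies at -0.56.

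With 4SU, the lectins and the isomerase that works with them had the largest estimated changes of the 10 genes. Their 95% intervals overlapped those of HYOU1 and PDIA6, and differences between genes were not tested. CALR (ENSG00000179218.15, chr19:12938609-12944489) encodes calreticulin, the soluble lectin, which also stores calcium. Its values were 631, 581 and 603 RPKM in the 4SU+UVA libraries, 677, 728 and 593 in those of 4SU, 532, 463 and 440 in those of UVA, and 498, 437 and 407 in untreated cells. Every 4SU library and every 4SU+UVA library lay above every UVA and untreated one. The change was 1.49-fold for 4SU against untreated (log2 0.57, SE 0.09, limma adjusted p = 0.00156) and 1.36-fold for 4SU+UVA against untreated (log2 0.44, SE 0.09, limma adjusted p = 0.000716). With 4SU+UVA it stood 0.21 above the change of the median gene, and with the trend on transcript length removed from each library it no longer passed (log2 0.19, limma adjusted p = 0.0612). Against UVA, 4SU+UVA was 1.27-fold higher (limma adjusted p = 0.00472), which did not pass under quantile normalisation (adjusted p = 0.137) or without the length trend (adjusted p = 0.111). Between 4SU+UVA and 4SU the difference of -0.14 (95% interval -0.32 to 0.06) did not pass, but it was -0.30 under quantile normalisation and -0.25 without the length trend and passed in both (limma adjusted p = 0.018 and 0.0228).

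CANX (ENSG00000127022.16, chr5:179678656-179731641) encodes calnexin, the membrane-bound lectin. It had 200.2, 185 and 193 RPKM with 4SU+UVA, 299, 303 and 255 with 4SU, 233, 198 and 191 with UVA alone, and 223, 186 and 180 in untreated cells. The 4SU libraries stood apart from the other 9, which overlapped. CANX was 1.46-fold higher with 4SU than in untreated cells (log2 0.54, SE 0.09, limma adjusted p = 0.00247). It was lower with 4SU+UVA than with 4SU, at 0.677 of its level (log2 -0.56, SE 0.09, limma adjusted p = 0.000239). Against untreated cells, 4SU+UVA differed by -0.02 (95% interval -0.22 to 0.18).

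PDIA3 (ENSG00000167004.14, chr15:43746438-43773278), also known as ERp57, is the isomerase that binds both lectins and acts on glycoproteins. It held 38.2 to 45.9 RPKM with 4SU+UVA, 51.4 to 66.3 with 4SU, 38.5 to 48.5 with UVA and 37.9 to 46.9 in untreated cells. As for CANX, only the 4SU libraries stood apart. It rose with 4SU (log2 0.54, SE 0.12, limma adjusted p = 0.00891) and was lower with 4SU+UVA than with 4SU (log2 -0.49, SE 0.12, limma adjusted p = 0.0039). Both calls, like those of CANX, held under all 22 other settings tried.

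**Figure D3:**
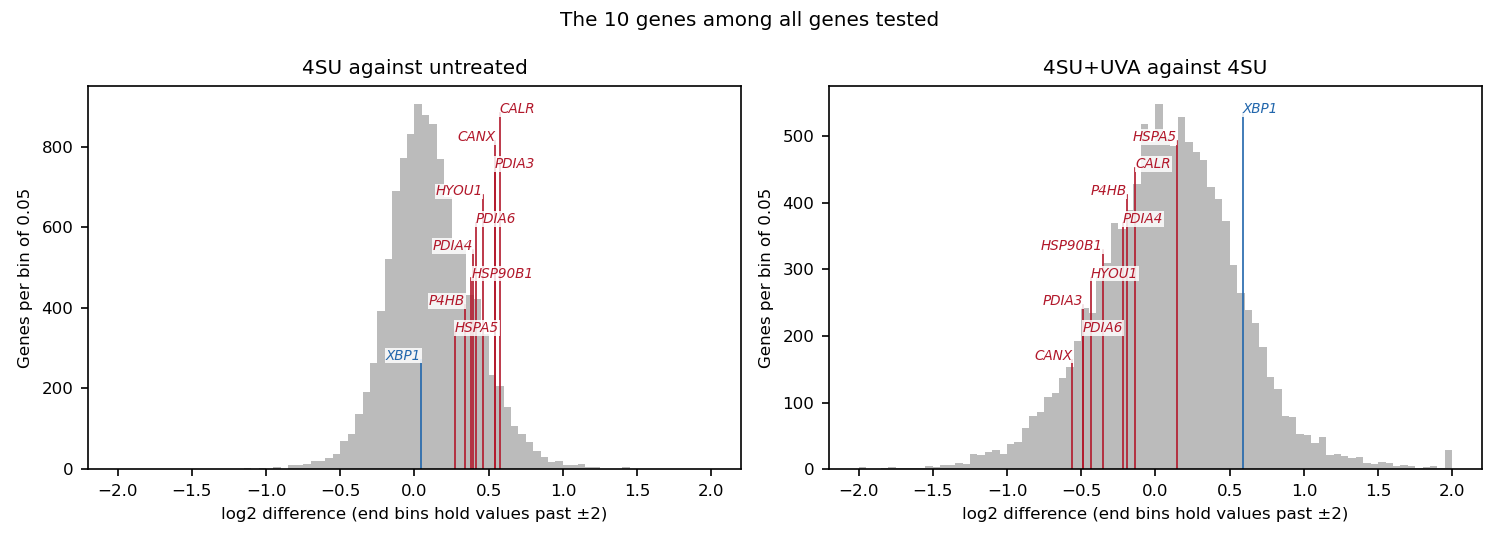
Number of genes (vertical axis) by log2 difference (horizontal axis, bins of 0.05) over the 11510 genes tested, with each of the 10 genes marked by a line whose height only separates the names. With 4SU (left) CALR, CANX and PDIA3 lie above 94.1%, 93% and 92.8% of all genes, and in 4SU+UVA against 4SU (right) CANX lies above 8.22% and XBP1 above 87%.

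Of the chaperones of the Hsp70 system, HSPA5 passed with 4SU+UVA and HYOU1 with 4SU, and the difference between the genes was not tested. HSPA5 (ENSG00000044574.9, chr9:125234853-125241343) encodes BiP, the Hsp70 of the ER, which binds nascent chains and keeps the sensors of the unfolded protein response inactive. It had 189, 234 and 183 RPKM with 4SU+UVA, 183, 206 and 159 with 4SU, 185, 169 and 153 with UVA alone, and 172, 145 and 137 in untreated cells. The 4SU+UVA libraries lay above the untreated ones, and all other pairs of groups overlapped. The rise with 4SU+UVA was 1.33-fold against untreated cells (log2 0.41, SE 0.11, limma adjusted p = 0.0061), or 0.18 above the median gene, and did not pass under median centring (log2 0.24, limma adjusted p = 0.0745). Its difference with 4SU alone, 0.27 (95% interval 0.03 to 0.51), did not pass (limma adjusted p = 0.123), but did without 4SU replicate 3 (log2 0.37, limma adjusted p = 0.0448). Between 4SU+UVA and 4SU HSPA5 differed by 0.14 (95% interval -0.10 to 0.39), and it was the only one of the 9 chaperones and isomerases with a positive value there.

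HYOU1 (ENSG00000149428.20, chr11:119044188-119057205) encodes a large relative of Hsp70 that exchanges the nucleotide of BiP. It ranged from 37.7 to 42.8 RPKM with 4SU+UVA, from 48.7 to 57.1 with 4SU, from 38.9 to 39.6 with UVA and from 36.1 to 44.7 in untreated cells. The 4SU libraries again lay above all others. It was 1.37-fold higher with 4SU than in untreated cells (log2 0.46, SE 0.09, limma adjusted p = 0.00584) and lower with 4SU+UVA than with 4SU (log2 -0.43, SE 0.09, limma adjusted p = 0.00163).

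HSP90B1 (ENSG00000166598.16, chr12:103930410-103947926) encodes the Hsp90 of the ER, which completes the folding of a restricted set of client proteins. It had 243, 243 and 232 RPKM with 4SU+UVA, 323, 340.1 and 262 with 4SU, 271, 254 and 218 with UVA alone, and 293, 214 and 206 in untreated cells. Untreated replicate 1 lay above 4SU replicate 3, so these groups overlapped. The difference of 0.38 with 4SU (SE 0.12) missed the threshold (limma adjusted p = 0.0501) and was 0.54 without untreated replicate 1 (limma adjusted p = 0.00695). It also passed without 4SU replicate 3 or UVA replicate 3 (limma adjusted p = 0.0148 and 0.0457), under quantile normalisation, with a filter of 5 RPKM and with a pseudocount of 1 (limma adjusted p = 0.0473, 0.0385 and 0.0498). It was lower with 4SU+UVA than with 4SU (log2 -0.35, SE 0.12, limma adjusted p = 0.0302), a call lost without any 1 of the 3 4SU+UVA libraries or without 4SU replicate 1 or 2 (limma adjusted p up to 0.122). That call was also lost with no filter on low values and with no variance trend (limma adjusted p = 0.0632 and 0.0713). Against untreated cells 4SU+UVA differed by 0.03 (95% interval -0.23 to 0.29).

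Among the other isomerases, PDIA6 (ENSG00000143870.13, chr2:10783391-10837712), which also acts on BiP clients, passed in the same comparisons as CANX and PDIA3. It had 133, 132 and 130.1 RPKM with 4SU+UVA, 199, 201 and 159 with 4SU, 142, 137 and 139 with UVA alone, and 148, 135 and 134 in untreated cells. The 4SU+UVA libraries lay just below all others, and the 4SU libraries lay above them. It rose with 4SU (log2 0.41, SE 0.08, limma adjusted p = 0.00463) and was lower with 4SU+UVA than with 4SU (log2 -0.49, SE 0.08, limma adjusted p = 0.000199). The difference between 4SU+UVA and untreated cells, -0.08 (95% interval -0.25 to 0.09), became -0.25 and passed under median centring (limma adjusted p = 0.0121). With the length trend removed this difference was -0.29 and passed too (limma adjusted p = 0.00364).

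PDIA4 (ENSG00000155660.11, chr7:149003051-149028505), an isomerase with several thioredoxin-like domains, held 94.7 to 106 RPKM with 4SU+UVA, 108 to 121 with 4SU, 83.6 to 108 with UVA and 82.4 to 98.6 in untreated cells. P4HB (ENSG00000185624.16, chr17:81843166-81860535), the archetypal isomerase and also a subunit of collagen prolyl hydroxylase, held 165 to 174 RPKM with 4SU+UVA, 162 to 220.1 with 4SU, 150 to 161 with UVA and 142 to 170.1 in untreated cells. The 4SU libraries lay above the untreated ones for PDIA4 and overlapped them for P4HB. Both rose with 4SU, PDIA4 by 0.39 (limma adjusted p = 0.0157) and P4HB by 0.34 (limma adjusted p = 0.028). These are the least firm of the 7 calls. Both were lost under median centring (limma adjusted p = 0.069 and 0.123) and with the length trend removed (limma adjusted p = 0.0612 and 0.124). They were also lost without any 1 of 4SU replicates 1 and 2 and untreated replicates 2 and 3 (limma adjusted p from 0.0573 to 0.132). P4HB was lost as well with no filter on low values, with no variance trend and with only the groups compared in the fit (limma adjusted p = 0.0587, 0.0746 and 0.0655). Between 4SU+UVA and 4SU they differed by -0.22 and -0.20, which did not pass (limma adjusted p = 0.0783 and 0.112). Both passed there under median centring (limma adjusted p = 0.0336 and 0.043) and with the length trend removed (limma adjusted p = 0.0415 and 0.0162). PDIA4 also passed without UVA replicate 1 (limma adjusted p = 0.0433), and P4HB without 4SU replicate 3, at -0.33 (limma adjusted p = 0.00422).

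XBP1 (ENSG00000100219.17, chr22:28794560-28800569), the transcription factor of the response, rose with 4SU+UVA and did not pass with 4SU. Whether it differed in this from the other genes was not tested. It had 37.7, 54.6 and 45.3 RPKM with 4SU+UVA, 28.6, 28.2 and 33.4 with 4SU, 36.9, 31.5 and 36.7 with UVA alone, and 25.4, 33.4 and 29.0 in untreated cells. All 4SU+UVA libraries lay above all other libraries, which overlapped one another. It was 1.55-fold higher with 4SU+UVA than in untreated cells (log2 0.63, SE 0.13, limma adjusted p = 0.000848), or 0.40 above the median gene, and 1.5-fold higher than with 4SU (log2 0.59, SE 0.13, limma adjusted p = 0.00215). Both calls held under all 22 other settings, at 0.38 to 0.76 and at 0.46 to 0.72.

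The comparison of XBP1 with UVA alone was less firm. The rise with 4SU+UVA was 0.37 (SE 0.13, limma adjusted p = 0.0256), and it was 0.24 and did not pass without 4SU+UVA replicate 2 (limma adjusted p = 0.131). It was also lost without 4SU+UVA replicate 3 or UVA replicate 2 (limma adjusted p = 0.0531 and 0.104) and under median centring (limma adjusted p = 0.09), and it was 0.19 with the length trend removed (limma adjusted p = 0.26). With 4SU alone XBP1 differed from untreated cells by 0.04 (95% interval -0.24 to 0.32), and with UVA alone by 0.26 (95% interval -0.02 to 0.54, limma adjusted p = 0.622). The table holds 1 transcript per gene, so the values of XBP1 do not separate its spliced and unspliced forms. Whether a change in splicing entered these values was not tested. RefSeq lists the pseudogenes HSPA5P1, HSP90B2P, HSP90B3P, PDIA3P1, PDIA3P2 and XBP1P1, and how reads that fit a gene and its copy were counted is not given in the sources used here.

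Whether UVA acted differently on cells that carried 4SU was tested as an interaction, the log2 change of 4SU+UVA against 4SU less that of UVA against untreated. This difference passed at 4 of the 10 genes, all below 0, where 24.8% of all genes tested passed, 14.1% below 0 and 10.7% above. With the filter of 5 RPKM the count was again 4, where 32.5% of all genes passed, 19.1% below 0 and 13.4% above. CANX was at -0.64 (SE 0.13, limma adjusted p = 0.00276), PDIA6 at -0.49 (SE 0.11, adjusted p = 0.00532), PDIA3 at -0.55 (SE 0.17, adjusted p = 0.0266) and HYOU1 at -0.44 (SE 0.13, adjusted p = 0.0227). The value for CANX joins a UVA effect of -0.56 with 4SU and of 0.08 without. CANX and PDIA6 kept their calls under all 21 other settings. PDIA3 was lost under 9 of them (adjusted p up to 0.0693), among them the fits without 4SU+UVA replicate 2, 4SU replicate 1 or 2, UVA replicate 1 or 2, or untreated replicate 2 or 3. HYOU1 was lost under 4 (adjusted p up to 0.0628), of which 3 leave out 4SU replicate 2 or untreated replicate 2 or 3. HSP90B1, at -0.43 (limma adjusted p = 0.089), passed without 4SU replicate 3 or untreated replicate 1 (limma adjusted p = 0.033 and 0.00899). The 10 genes lay between -0.64 and 0.33, with XBP1 the only one above 0 (0.33, 95% interval -0.06 to 0.72, limma adjusted p = 0.212).

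Replicates of 1 group differed at the chaperones and isomerases together. Untreated replicate 1 was the highest of its group at 9 of these 9 genes, by a median of 0.17 on the log2 scale above the group mean, whereas it was the highest at 36.9% of all genes. 4SU replicate 3 was the lowest of its group at 9 of 9, by a median of 0.19 below the mean, where it was the lowest at 44.7% of all genes. UVA replicate 1 was the highest at 8 of 9 and UVA replicate 3 the lowest at 8 of 9, where these libraries were highest and lowest at 35.2% and 35.4% of all genes. The 4SU+UVA libraries showed no such order, with 4, 4 and 1 of the genes highest in replicates 1, 2 and 3. Depth ran fully opposite to this order only in the untreated group. There replicate 1 was the shallowest and replicate 3, lowest at 8 of 9 (32.9% of all genes), the deepest. In the 4SU group replicate 3 was the deepest, at 4514227 reads. UVA replicate 1 was the shallowest of its group, but replicate 2 was the deepest. 4SU replicate 2, highest at 8 of 9 (30.8% of all genes), was close to replicate 3 in depth, with 4450172 reads, against 3991129 in replicate 1. The 4SU+UVA libraries, which showed no such order, ran from 1899854 to 5526950 reads. The part of depth in the order of the libraries was not tested.

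XBP1 stood on the other side of its group mean in the most divergent of these libraries. It was 0.19 below the mean in untreated replicate 1 and 0.15 above it in 4SU replicate 3. Without 4SU replicate 3 the 4SU comparison counted 9 of 10 genes higher, where 13.4% of all genes were higher. Without 4SU replicate 1 or 2, or untreated replicate 2 or 3, it counted 5, where 5.04% to 6.27% of all genes were higher. The 5 that kept the call in each of these fits and in all other settings were CALR, CANX, PDIA3, PDIA6 and HYOU1.

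**Figure D4:**
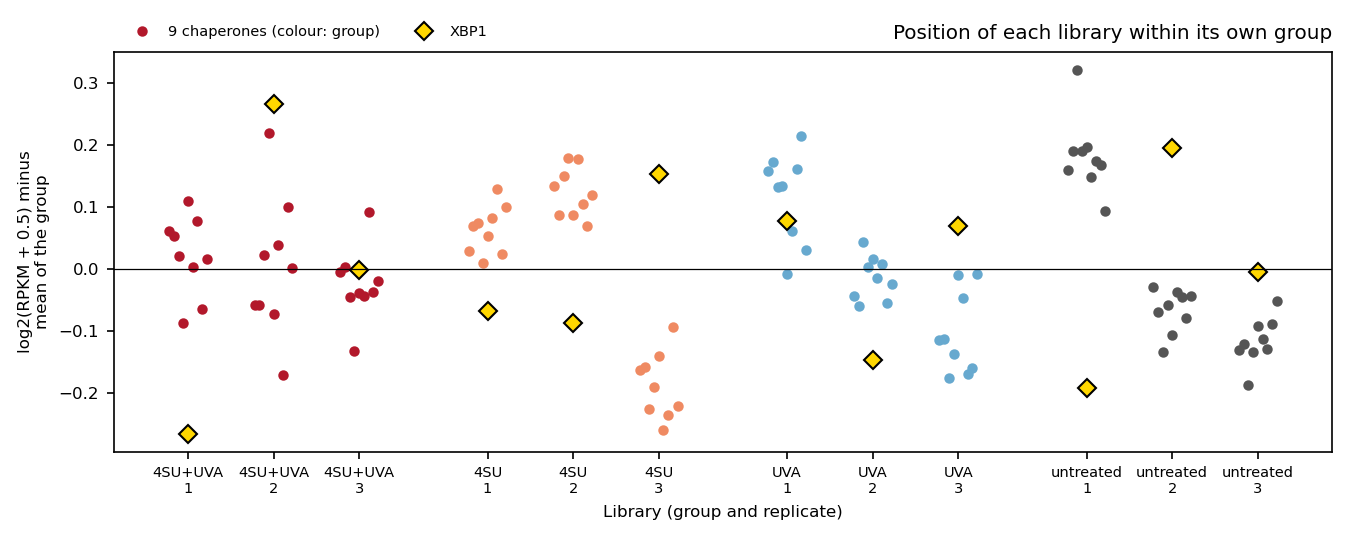
Difference of each library from the mean of its own group in log2(RPKM + 0.5) (vertical axis), for 12 libraries (horizontal axis). Circles are the 9 chaperones and isomerases and diamonds are XBP1. The 9 circles of 4SU replicate 3 all lie below 0 and those of untreated replicate 1 all above 0, with XBP1 on the opposite side in both.

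Likeness to other genes was measured as Pearson's r over the 12 libraries among 3925 genes with a mean of at least 20 RPKM, as a description, since the libraries fall into 4 groups. The gene closest to the mean of the 9 chaperones and isomerases was ENSG00000244038.11 (r = 0.977), which averaged 155 RPKM with 4SU+UVA, 203 with 4SU, 150 with UVA and 144 in untreated cells. It was thus also highest with 4SU. The gene closest to XBP1 was ENSG00000121897.15 (r = 0.939), with 28.4 RPKM with 4SU+UVA, 22.3 with 4SU, 24.6 with UVA and 21.3 in untreated cells. The table gives neither a symbol.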

How the data were processed

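The authors deposited 1 table of RPKM values, 1 transcript per gene, for 12 libraries. STAR 2.7.10a and the build hg38 are named in the submitters' processing notes, and the counting tool, annotation and filters were not given in the sources used here. Per the labels' protocols, RNase I footprints were pelleted through a sucrose cushion and amplified by PCR, with no molecular identifiers described.

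The steps between RPKM values gave back each library's total, the length of each transcript (the smallest that makes all values whole within 0.001 reads) and the reads. Tests used limma 3.58.1 in R 4.3.3 on log2(RPKM + 0.5), with 1 model of 4 group means over 12 libraries, eBayes with a variance trend, two-sided, and Benjamini-Hochberg adjustment over the 11510 genes tested in each comparison. Fold changes are on that scale, which slightly understates those of low genes. The steps were tested on simulated data. Other pseudocounts, filters, scalings and fits were tried, and each library was left out in turn.

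The 10 genes and lists of other pathway and marker genes were chosen with earlier results of these data known, and those lists were not used because the table has no symbols. All 10 genes were named whatever their values, and of the genes most like them the first is given. Coordinates are those of RefSeq on GRCh38.p14, while the build of the alignment is named only as hg38.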

Additional observations from a re-analysis of the deposited data

Results flagged for a closer look

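The effect of UVA differed between cells with and without 4SU, by the test of that difference, at 4 of the 10 genes, all below 0, where 24.8% of all genes passed and 14.1% passed below 0. The UVA effect with 4SU minus that without was -0.64 for CANX, -0.55 for PDIA3, -0.49 for PDIA6 and -0.44 for HYOU1 on the log2 scale (limma adjusted p = 0.00276, 0.0266, 0.00532 and 0.0227). In each case the effect was below 0 with 4SU, at -0.56, -0.49, -0.49 and -0.43, and near 0 without it, at 0.08, 0.06, 0.00 and 0.01. PDIA3 lost its call under 9 of 21 other settings and HYOU1 under 4, and CANX and PDIA6 kept theirs under all 21. The 4SU libraries enter these values and stood highest at all 4 genes. Its cause was not tested.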

How the results depend on the processing

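Of 60 changes (10 genes in 6 comparisons), 39 kept their side of the threshold under every setting and 21 did not, and none that passed turned its direction. The share of all genes called in the same fit follows each count in parentheses. For 4SU+UVA against UVA the count of 2 (54.4%) was 1 under median centring (50.6%), 1 under quantile normalisation (49.7%) and 1, then lower (PDIA6), with the length trend removed (49.4%). With 1 library left out it was 1 to 3, with 1 without 4SU+UVA replicate 2 (48.7%) or UVA replicate 2 (48%) and 3 without UVA replicate 1 (49%). The 4 interaction calls (24.8%) were 2 to 6 with 1 library left out, with 2 without 4SU replicate 2 (20.7%) or untreated replicate 2 or 3 (20.3% each) and 6 without 4SU replicate 3 (21.8%). Over all genes tested, deviations from the group mean correlated at -0.046 to 0.068 over 18 same-numbered pairs. Genes with few reads are among them and their noise lowers such values, so this does not settle whether replicate numbers pair the libraries. At the 9 chaperones and isomerases, replicate 3 was the lowest in 3 of the 4 groups. It was lowest at 9 of 9 with 4SU and at 8 of 9 both with UVA and in untreated cells (44.7%, 35.4% and 32.9% of all genes). With 4SU+UVA it was lowest at 4 of 9 (29.4% of all genes). Whether replicate numbers pair the libraries at these genes was not tested. With the replicate block the counts were 3 (59.2%), 8 (14%) and 0 (0.66%) for 4SU+UVA, 4SU and UVA against untreated, 6 (43.8%) for 4SU+UVA against 4SU, 3 (54.1%) against UVA and 5 (24.2%) for the interaction. The block added HSP90B1 with 4SU (adjusted p = 0.0149) and in the interaction (0.0279) and HSPA5 in 4SU+UVA against UVA (0.0282), and changed no other call. Fits that leave a group with 2 libraries take the spread from all groups. Depth limits XBP1 most, at 178 to 385 reads per library.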
